A study of Mus musculus with 768 samples.

Results

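Foxc1, Sox9 and Sox10 are transcription factors that have been linked to the luminal progenitors of the mammary gland, and their levels were followed here through single mouse mammary cells. They are 3 of the 23997 gene names in the count tables. They were chosen by their measured levels and shares of cells, by class, plate and eGFP reads, in the same cells, so the values given for them are descriptions. Smart-Seq2, a full-length protocol that makes 1 library per sorted cell, was applied to 1 plate of 384 wells per genotype. All mice were C57BL/6 and all carried WAP-CRE. This transgene makes Cre recombinase where the whey protein gene Wap is on, mainly in alveolar luminal cells of pregnancy and lactation. The control mice were WAP-CRE; R26-tdTomato, whose Rosa26 locus makes the red protein tdTomato once Cre has acted. The other mice were WAP-CRE; R26-N1ICD-EGFP, whose Rosa26 locus then makes EGFP and N1ICD, the intracellular domain of Notch1, which signals without a ligand. Cells came from inguinal glands after what the series describes as a lactation of 3 to 4 months, and reporter-positive cells were sorted. The cells described had 50000 reads or more and 1000 genes or more, 334 on the control and 283 on the N1ICD-EGFP plate.

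The labels name no animals, so each plate was 1 sample, and no p-value was computed. Genotype cannot be told apart from plate or from the colour of the reporter. The control cells held 50048 to 608476 reads (median 241888) and the N1ICD-EGFP cells 51736 to 615615 (median 348469), with a median of 3598 and 2482 detected genes. Intervals below are 95% intervals for counting error only, since PCR copies were counted without molecular identifiers. A share is the percentage of cells with at least 1 read of a gene after each cell was thinned to 50000 reads, with a Clopper-Pearson interval. A level is the reads summed over the cells of a group and scaled to a common total (CPM), with an exact Poisson interval.

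Foxc1 is a forkhead factor known from the development of the eye, skeleton and vessels and from basal-like breast cancer. Sox9 and Sox10 belong to the SoxE group. Sox9 directs cartilage formation and is found in stem and progenitor cells of many epithelia. Sox10 marks neural crest, Schwann cells and melanocytes and, in the mammary gland, progenitor-rich cells of the luminal and basal layers. Notch signalling works through the released intracellular domain, which joins the DNA-binding protein RBPJ at target genes, and in the mammary gland it favours luminal fates.

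In the RefSeq annotation of GRCm38.p6, the assembly behind mm10, Foxc1 lies at chr13:31806646-31810635 on the plus strand, Sox9 at chr11:112782210-112787757 on the plus strand and Sox10 at chr15:79154913-79164490 on the minus strand. All are protein-coding, and no other annotated gene overlaps their exons. The start region is shown for Foxc1 alone, because a promoter sequence was at hand for this member only. It is given 5′ to 3′ on the plus strand as the 250 bases before the annotated start (chr13:31806396-31806645, 70.8% G and C) and the first 30 bases of the gene (chr13:31806646-31806675).
Foxc1, before the start: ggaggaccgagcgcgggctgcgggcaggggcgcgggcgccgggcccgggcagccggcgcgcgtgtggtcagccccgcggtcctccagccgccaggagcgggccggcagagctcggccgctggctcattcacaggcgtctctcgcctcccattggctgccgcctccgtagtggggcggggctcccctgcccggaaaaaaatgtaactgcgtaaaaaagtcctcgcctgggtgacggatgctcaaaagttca
Foxc1, from the start: gaagttTTCCCAatgcttccttaagcggcc
The capitals mark TTCCCA, the opposite-strand reading of TGGGAA, the core letters of the RBPJ motif, which begins 7 bases into the gene when its first base is counted as 1. Both strands of the window were searched for TGGGAA, and this was the only match. The same 6 letters occur in 25.6% of the 32851 RefSeq windows of the same extent (250 bases before and 50 after a start), so the match describes the letters and no site. The median window held 52.7% G and C.

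Cells were clustered in each plate without the 3 genes, so that their reads did not shape the classes, and clusters were named from marker genes. The class called luminal progenitor/secretory-like held 239 control cells (71.6%) and 158 N1ICD-EGFP cells (55.8%). Progenitor markers such as Kit, Elf5 and Plet1 and milk genes were raised in the same clusters, so the data did not separate progenitors from secretory cells, and the 3 genes are described for the joint class. Hormone-sensing luminal-like cells, which carry Prlr, Esr1 and Foxa1, numbered 64 on the control plate and 7 on the other. Immune-like cells numbered 24 and 48, and 7 control cells were basal-like. A further N1ICD-EGFP cluster of 70 cells (24.7% of that plate) stayed unnamed. It had 8 of 10 progenitor markers and 1 secretory marker raised, but its 10 leading genes by fold, headed by Nkd2, Col6a1 and Lect1, held the basal keratin Krt14 and no progenitor marker. The plates were numbered separately, and the joint class was made of control clusters 0, 2, 4 and 5 and N1ICD-EGFP clusters 0, 1 and 4.

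Foxc1 was read almost only in the joint class and the unnamed cluster. In the control plate the progenitor/secretory-like cells held 1776 of the 1794 Foxc1 reads. Per cell, Foxc1 ranged there from 0 to 1356 CPM with a median of 0, and 31 of 239 cells reached 100 CPM. Most of these cells had no Foxc1 read and a minority had many, so the summed level rested on few cells. The summed level was 33.5 CPM (32.0 to 35.1) and the share 25.5% (20.1 to 31.5), or 31.4% without thinning.

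In the N1ICD-EGFP plate the progenitor/secretory-like cells held 40.3% of the Foxc1 reads and the unnamed cluster 59.7%. Foxc1 ranged from 0 to 1001 CPM in the joint class, again with a median of 0, and 33 of 158 cells reached 100 CPM. The summed level was 73.7 CPM (71.5 to 76.0) and the share 38.6% (31.0 to 46.7), or 46.8% unthinned. The unnamed cluster stood above both: its cells ranged from 0 to 2077 CPM with a median of 136, and 38 of 70 reached 100 CPM. Its summed level was 277 CPM (270 to 284) and its share 65.7% (53.4 to 76.7), or 68.6% unthinned. The single cell with the most Foxc1 held 9.21% of the cluster's Foxc1 reads.

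Outside these classes Foxc1 was at or near 0. The 64 control hormone-sensing cells held 18 reads, all in 1 cell, which is a share of 1.56% (0.04 to 8.40). No read was found in the 7 N1ICD-EGFP hormone-sensing cells, the 7 basal-like cells or the 24 control immune-like cells, whose upper limits for the share were 41.0%, 41.0% and 14.2%. The 48 N1ICD-EGFP immune-like cells held 1 read. Immune cells should lack all 3 genes, so their shares are used as the background, whatever its source, and for Foxc1 that background was 0 in the thinned cells of both plates. Of the 24 control immune-like cells 83.3% had reads of at least 3 luminal progenitor markers, which summed to 1652 CPM, and the highest of these cells for Sox9 held 443 CPM. The source of these reads was not tested. Median depths were 207726 and 339930 reads in the immune-like cells of the control and the N1ICD-EGFP plate, against 212757 and 352892 in the joint class.

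**Figure D1:**
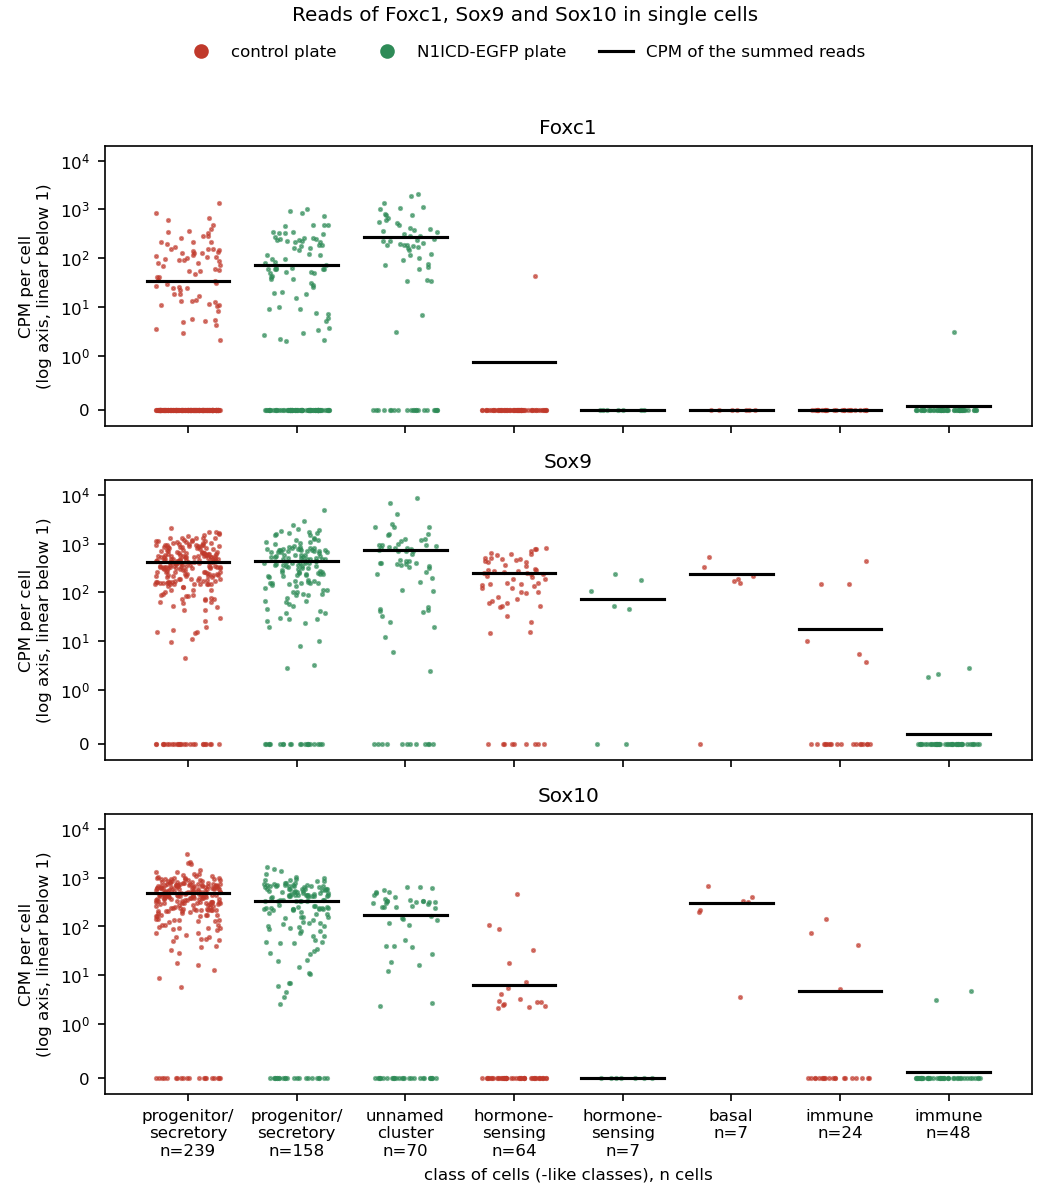
Each point is 1 cell, placed by its CPM of Foxc1, Sox9 or Sox10 (log axis, linear below 1) within its class. Black lines give the CPM of the summed reads. Foxc1 has most cells at 0 except in the unnamed cluster, Sox9 is spread through all epithelial classes, and Sox10 is near 0 in hormone-sensing cells.

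Sox9 was the member shared by all epithelial classes. In control progenitor/secretory-like cells it ranged from 0 to 2090 CPM with a median of 332, and its summed level was 414 CPM with a share of 87.0% (82.1 to 91.0). In the same class of the N1ICD-EGFP plate it ranged from 0 to 4854 CPM with a median of 313, with a level of 446 CPM and a share of 81.6% (74.7 to 87.3). The unnamed cluster ranged from 0 to 8730 CPM with a median of 394, a level of 731 CPM and a share of 78.6% (67.1 to 87.5). Control hormone-sensing cells ranged from 0 to 814 CPM with a median of 170, a level of 254 CPM and a share of 84.4% (73.1 to 92.2). The 7 basal-like cells were at 240 CPM and 85.7%, and the 7 N1ICD-EGFP hormone-sensing cells at 72.4 CPM and 71.4%. The shares of these 6 groups all had overlapping intervals, while the summed levels ran from the unnamed cluster down through the joint class to the hormone-sensing and basal-like cells. Immune-like cells were at 17.8 CPM and 16.7% (4.74 to 37.4) on the control plate and at 0.18 CPM with a share of 0% on the other plate.

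Sox10 separated the luminal classes. Control progenitor/secretory-like cells ranged from 0 to 3141 CPM with a median of 391, a level of 491 CPM and a share of 90.8% (86.4 to 94.1), the highest of the 3 genes. The same class of the N1ICD-EGFP plate ranged from 0 to 1689 CPM with a median of 252, a level of 339 CPM and a share of 79.1% (71.9 to 85.2). The unnamed cluster was lower, from 0 to 653 CPM with a median of 38.1, a level of 170 CPM and a share of 54.3% (41.9 to 66.3). The basal-like cells held 297 CPM, with a read in 6 of 7 cells. Control hormone-sensing cells held 6.25 CPM (5.21 to 7.42) and a share of 9.38% (3.52 to 19.3). That share lay below the 16.7% (4.74 to 37.4) of the control immune-like cells, with overlapping intervals. The summed level lay above theirs, at 6.25 against 4.74 CPM, as did the share without thinning, at 26.6% against 16.7%. Whether Sox10 in the hormone-sensing cells exceeds the background was not tested. The highest of these hormone-sensing cells, at 463 CPM, held 35.7% of their Sox10 reads. None of the 7 N1ICD-EGFP hormone-sensing cells had a Sox10 read, and the N1ICD-EGFP immune-like cells were at 0.12 CPM and 2.08%.

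**Figure D2:**
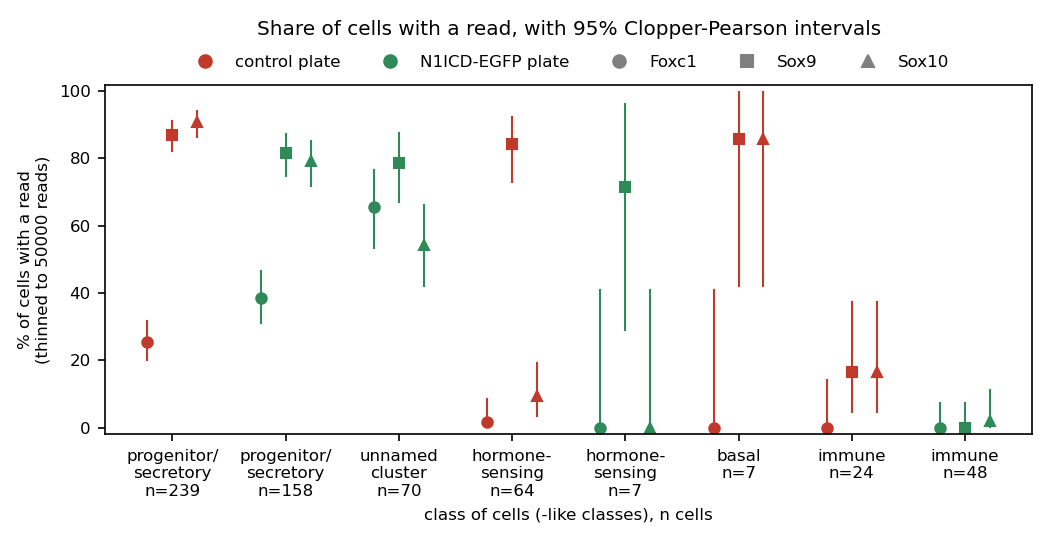
Share of cells with at least 1 read after thinning to 50000 reads, by class and plate, with 95% Clopper-Pearson intervals. Sox9 lies at 71.4% or more in every epithelial class, Sox10 drops to 9.38% in control hormone-sensing cells, and Foxc1 lies at 25.5% in the control joint class, 38.6% in that of the N1ICD-EGFP plate and 65.7% in the unnamed cluster.

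Since longer transcripts give more reads in full-length libraries, genes were compared only as CPM per kilobase of exon, with exon lengths from GENCODE M21. In control progenitor/secretory-like cells Sox10 stood at 161 CPM per kilobase, Sox9 at 100.02 and Foxc1 at 5.73. In the same class of the N1ICD-EGFP plate Sox10 and Sox9 lay close together, at 111 and 108, and Foxc1 was at 12.6. In the unnamed cluster the order of the Sox genes was turned round, with Sox9 at 177, Sox10 at 55.6 and Foxc1 at 47.4. In control hormone-sensing cells Sox9 was at 61.5, Sox10 at 2.05 and Foxc1 at 0.15.

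Within the control plate, the progenitor/secretory-like cells were set against the hormone-sensing cells. Foxc1 was 38.4-fold higher (log2 ratio of CPM plus 1, 4.20), Sox10 78.7-fold higher (6.09) and Sox9 1.63-fold higher (0.70) in the progenitor/secretory-like cells. All 3 genes thus passed the fold of 1.5 used for calls, as 29.9% of the 11313 genes at 5 CPM or more did in this direction, and the median of all those genes was 0.02. For Sox9 the share differed by 2.65 points, with a Newcombe interval of -5.79 to 14.1 points that spans 0. The shares of Foxc1 and Sox10 differed by 23.96 points (15.5 to 29.98) and 81.4 points (70.9 to 87.3).

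Between the plates, over all kept cells, Foxc1 was higher in the N1ICD-EGFP plate and neither Sox gene passed 1.5-fold. Foxc1 stood at 104 CPM (102.4 to 106.5) against 22.2 (21.2 to 23.2) in the control, a log2 ratio of 2.19. Its share was 37.8% against 18.6%, a difference of 19.2 points (12.2 to 26.2). Sox9 stood at 422 against 343 CPM (log2 ratio 0.30), while its share was 66.8% against 81.4%, a difference of -14.7 points (-21.5 to -7.74). Sox10 stood at 232 against 331 CPM (-0.51), and its share was 58.0% against 69.8%, a difference of -11.8 points (-19.3 to -4.21). Only Foxc1 of the 3 passed 1.5-fold, where 22.5% of the 12021 genes at 5 CPM or more were higher and 16.7% lower by that fold. The median log2 ratio of all these genes was 0.07.

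The make-up of the plates moved with these values. Immune-like cells, which set the background of the 3 genes, made up 7.19% of the control plate and 16.96% of the other. Hormone-sensing cells, with Foxc1 and Sox10 near that background, made up 19.2% and 2.47%. Without both classes, a comparison added after seeing the data, Foxc1 was 4.06-fold higher in the N1ICD-EGFP plate (131 against 32.3 CPM), Sox9 1.29-fold higher (527 against 407 CPM) and Sox10 1.66-fold lower (291 against 484 CPM). The share of Sox9 then differed by -6.29 points (-12.98 to 0.34), an interval that spans 0, and that of Sox10 by -19.2 points (-26.0 to -12.2).

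Within the progenitor/secretory-like class alone, Foxc1 was 2.20-fold higher in the N1ICD-EGFP plate, at 73.7 against 33.5 CPM (log2 ratio 1.11), and its share was 13.1 points higher (3.76 to 22.4). The cells of both plates overlapped, with ranges of 0 to 1001 and 0 to 1356 CPM, and cells at 100 CPM or more made up 20.9% against 12.97%. Sox9 was at 446 against 414 CPM (0.11), and the share differed by -5.38 points (-13.1 to 1.77). Sox10 was 1.45-fold lower, at 339 against 491 CPM (-0.53), and its share was 11.7 points lower, with an interval of -19.3 to -4.59 for the difference. Of the 11320 genes at 5 CPM or more in these cells, 21.6% were higher and 17.5% lower by 1.5-fold, with a median log2 ratio of 0.08. Foxc1 passed that fold and the Sox genes did not. With the unnamed cluster counted in the class, an alternative chosen after seeing the data, Sox10 passed it as well (-0.75).

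The clusters within the class varied. Foxc1 stood at 21.9, 55.7, 35.7 and 33.8 CPM in control clusters 0, 2, 4 and 5, and at 48.3, 89.3 and 82.9 CPM in clusters 0, 1 and 4 of the N1ICD-EGFP plate, so control cluster 2 lay above N1ICD-EGFP cluster 0. Sox10 stood at 415, 376, 569 and 602 CPM in the control clusters and at 370, 292 and 356 CPM in those of the other plate. The intervals of control cluster 2 (363 to 389 CPM) and N1ICD-EGFP cluster 0 (361 to 379 CPM) overlapped. Sox9 stood at 433, 427, 458 and 349 CPM against 446, 462 and 432 CPM, which overlap. The share of Sox10 in N1ICD-EGFP cluster 0, which has the deepest cells of the class, was 97.6% (87.1 to 99.9), against 71.7% and 73.7% in clusters 1 and 4.

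Foxc1 had the same direction in both sets of well columns, which are parts of the same plates and no replicates. In well columns 1 to 12 it stood at 89.9 CPM in the N1ICD-EGFP and 24.4 CPM in the control plate, and in columns 13 to 24 at 119 and 19.2 CPM. Sox10 was at 229 against 332 CPM in the first columns and at 235 against 330 CPM in the others. Sox9 was at 441 against 329 CPM and at 402 against 361 CPM.

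The unnamed cluster was set beside the progenitor/secretory-like cells of its own plate, which share its library preparation. Foxc1 was 3.76-fold higher there (277 against 73.7 CPM), with a share 27.1 points higher (13.1 to 39.5). Sox9 was 1.64-fold higher (731 against 446 CPM), while its share differed by -3.07 points (-15.2 to 7.39). Sox10 was lower (log2 ratio -0.99, 170 against 339 CPM), with a share difference of -24.8 points (-37.7 to -11.7). Among 11555 genes at 5 CPM or more, 26.8% were higher and 25.9% lower by 1.5-fold. The median log2 ratio of these genes was 0.05, and the clusters were made from genes other than the 3 described here. Median depth was 331894 reads in the unnamed cluster and 352892 in the joint class.

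Markers of other cell types were summed in the same groups, because Sox10 is also a gene of glia and melanocytes and Foxc1 one of mesenchyme. The 8 Schwann cell and glia markers summed to 110 CPM in the control and 79.4 CPM in the N1ICD-EGFP progenitor/secretory-like cells and to 69.3 CPM in the unnamed cluster, with Foxd3 at 0 in all 3 groups and Ngfr at 0 in the cluster. At least 3 of these markers were read in 1.26%, 0% and 2.86% of the cells, a stricter criterion than the 1 read counted for Sox10. The part of glial cells in the Sox10 level was not tested. The 5 melanocyte markers summed to 2.94, 3.99 and 0.55 CPM. The 6 fibroblast markers summed to 648, 804 and 1.60 CPM, and at least 3 of them were read in 1.26%, 1.90% and 0% of the cells. The 5 endothelial and pericyte markers summed to 35.8, 22.5 and 289 CPM, with Rgs5 at 0 in both N1ICD-EGFP groups and Emcn at 0 in the joint class of that plate, and at least 3 of them were read in 0.42%, 0% and 2.86% of the cells. Within the cluster they summed to 667 CPM in the 38 cells without a read of the eGFP transgene and 0.24 CPM in the 32 with one, where Foxc1 stood at 252 and 295 CPM. The 10 basal markers summed to 77.6, 346 and 674 CPM, against 19739 CPM in the basal-like cells, with Cnn1 and Actg2 at 0 in the unnamed cluster. Krt14 was read in 26.1% of the cluster's cells with Foxc1 and in 12.5% of those without. The part of basal and vascular cells in the Foxc1 level was not tested.

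The 3 genes were then followed in the same cell. In control progenitor/secretory-like cells the commonest state was Sox9 with Sox10 and no Foxc1, in 142 of 239 cells (59.4%), and all 3 genes were read in 49 cells (20.5%). Foxc1 without either Sox gene was read in 0 of 239 cells. In the same class of the N1ICD-EGFP plate, Sox9 with Sox10 alone was read in 60 of 158 cells (37.97%) and all 3 were read in 49 cells (31.0%), a difference of 10.5 points (1.81 to 19.4) from the control. The unnamed cluster had all 3 in 26 of 70 cells (37.1%), and Foxc1 with Sox9 but no Sox10 in 13 cells (18.6%), a state held by 1.67% and 5.06% of the joint class in the control and N1ICD-EGFP plates. Control hormone-sensing cells were mostly Sox9 alone, 49 of 64 (76.6%). Over all kept cells, the share with all 3 was 14.7% in the control plate and 26.5% in the other.

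**Figure D3:**
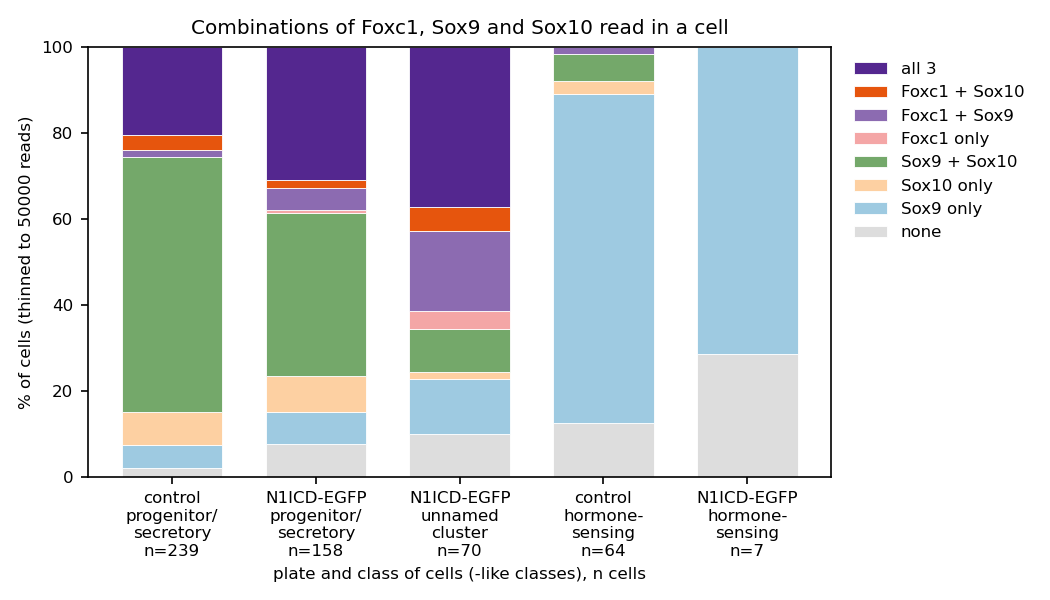
Stacked bars give the percentage of cells in each class with each combination of Foxc1, Sox9 and Sox10 reads after thinning. Sox9 with Sox10 is the largest part of the control joint class (59.4%), all 3 genes together the largest of the unnamed cluster (37.1%), and Sox9 alone the largest of the hormone-sensing cells (76.6%).

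Whether cells with Foxc1 also carried the Sox genes differed in value between the plates. In control progenitor/secretory-like cells Sox9 was read in 86.9% of cells with Foxc1 and 87.1% of those without, and Sox10 in 93.4% and 89.9%. In the N1ICD-EGFP plate Sox9 was read in 93.4% of the 61 cells with Foxc1 and in 74.2% of the 97 without it, and Sox10 in 85.2% and 75.3%. In the unnamed cluster Sox9 was read in 84.8% of the 46 cells with Foxc1 and 66.7% of the 24 without, and Sox10 in 65.2% and 33.3%. Depth moved with the split in the unnamed cluster, where cells with Foxc1 had a median of 349102 reads and those without 270834, and its part in the result was not tested. Across cells, Pearson's r of log2(CPM + 1) between the members was between -0.00 and 0.08 in the control class (239 cells), between 0.10 and 0.32 in the N1ICD-EGFP class (158 cells) and between 0.14 and 0.29 in the unnamed cluster (70 cells). These cells share 1 library preparation per plate, and r of each member with the reads per cell was between -0.07 and 0.31 in the same groups, so the weak relations are no finding.

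The eGFP row marks the N1ICD transgene. A read of it was present in 93 of the 283 N1ICD-EGFP cells (32.9%, 3095 reads), although the cells had been sorted for the reporter, and in 55 of the 334 control cells (16.5%, 64 reads), which gives its background. In the N1ICD-EGFP plate 37.97% of the progenitor/secretory-like cells (2209 reads), 45.7% of the unnamed cluster and 2.08% of the immune-like cells had an eGFP read. The background differed by class as well. On the control plate 21.3% of the progenitor/secretory-like cells (60 reads), 6.25% of the hormone-sensing cells and 0% of the immune-like cells had such a read. Over all N1ICD-EGFP cells, all members were higher in cells with eGFP: Foxc1 stood at 142 against 81.6 CPM (log2 ratio 0.80), Sox9 at 499 against 375 CPM (0.41) and Sox10 at 327 against 174 CPM (0.90). Foxc1 and Sox10 passed 1.5-fold, where 19.1% of 12017 genes were higher and 28.5% lower. The shares were higher by 28.6 points for Foxc1 (16.4 to 39.8), 23.9 points for Sox9 (12.7 to 33.4) and 35.4 points for Sox10 (23.9 to 45.0). Of the 48 immune-like cells 47 had no eGFP read, so the comparison was repeated within classes.

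Within the progenitor/secretory-like class of the N1ICD-EGFP plate, Sox10 was read in 93.3% of the 60 cells with eGFP and 70.4% of the 98 without, a difference of 22.9 points (10.6 to 33.4), and stood at 408 against 287 CPM (0.50). Foxc1 stood at 64.5 against 80.6 CPM (-0.32), the other direction from that over all cells, with shares of 45.0% and 34.7% and a difference of 10.3 points (-5.14 to 25.5). Sox9 stood at 387 against 491 CPM (-0.34), with a share difference of 2.72 points (-10.4 to 14.3). In the unnamed cluster Foxc1 was read in 81.2% of the 32 cells with eGFP and 52.6% of the 38 without, a difference of 28.6 points (6.35 to 46.9), at similar summed levels of 295 and 252 CPM. Cells with eGFP were deeper, with medians of 425423 against 330834 reads in the joint class and 400518 against 256902 in the unnamed cluster, and the part of depth was not tested beyond the thinning. The clusters of the joint class differed too. An eGFP read was present in 58.5% of cluster 0 and in 26.7% and 35.1% of clusters 1 and 4. Their Sox10 shares were 97.6%, 71.7% and 73.7%, and the part of cluster make-up was not tested. In control progenitor/secretory-like cells, where eGFP reads are background, Sox10 was read in 90.2% of cells with and 91.0% without such a read, and Foxc1 in 25.5% of both.

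**Figure D4:**
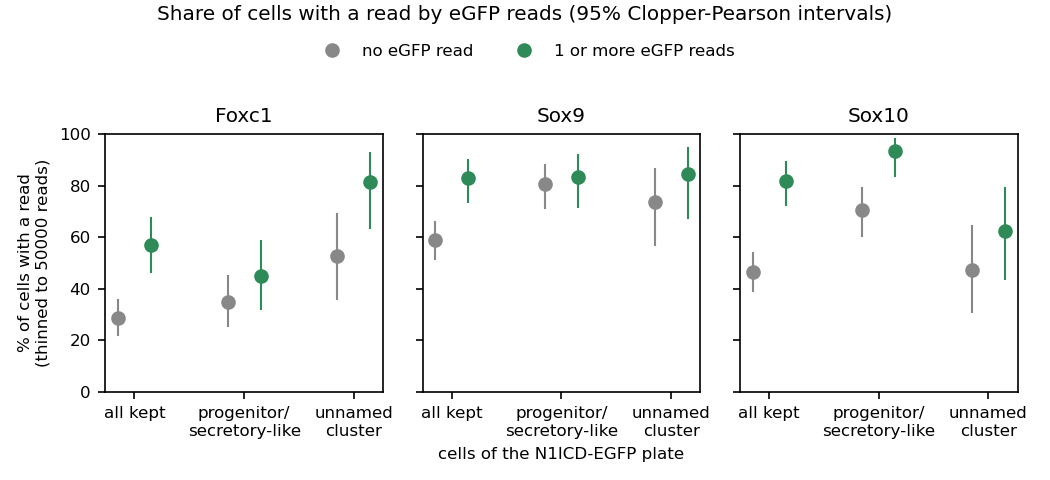
Share of N1ICD-EGFP cells with a read of each gene, split by the presence of an eGFP read, with 95% Clopper-Pearson intervals. In the joint class the 2 intervals separate for Sox10 (93.3% against 70.4%) and overlap for Foxc1 and Sox9.

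The Sox family gives the setting for the SoxE genes. In progenitor/secretory-like cells 9 of 18 listed Sox genes reached 5 CPM in either plate. Per kilobase, the nearest Sox genes to Sox9 and Sox10 in the control cells were Sox13 at 10.6 and Sox4 at 7.12, and the third SoxE gene, Sox8, was at 2.16. Between the plates 3 of the 9 were higher and 1 lower by 1.5-fold, beside 21.6% and 17.5% of all genes tested, and the median log2 ratio was 0.34, or 0.42 for the 7 other than Sox9 and Sox10, against 0.08 for all genes. The 3 were Sox6 (25.5 against 11.8 CPM), Sox11 (8.85 against 0.98 CPM) and Sox14 (7.28 against 0.9996 CPM), and each was read in 15.8% of cells or fewer. Sox11 was read in 0.63% of the N1ICD-EGFP cells against 2.09% of the control cells after thinning, and in 5.06% against 3.35% before it. The lower one was Sox5, at 1.04 against 8.56 CPM. Sox4, a SoxC factor of progenitors, was at 45.9 against 34.1 CPM, and Sox13 at 58.1 against 45.7 CPM.

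Among the forkhead genes Foxc1 was neither the most abundant nor the most changed in these cells. In progenitor/secretory-like cells 16 of 37 listed forkhead genes reached 5 CPM, of which 6 were higher and 2 lower by 1.5-fold (21.6% and 17.5% of all genes), with a median of 0.20, or 0.13 for the 15 other than Foxc1. Foxi1, a factor of ionocytes in other epithelia, was the most abundant per kilobase in the control, at 243 against 5.73 for Foxc1, and was 2.20-fold lower in the N1ICD-EGFP plate (260 against 572 CPM), with a share of 29.7% against 54.0%. Foxm1 had the largest rise, at 15.7 against 1.60 CPM, but was read in only 3.80% against 0.84% of cells. Foxs1 was 4.08-fold higher (50.2 against 12.3 CPM, 22.8% against 9.62% of cells), Foxo4 3.11-fold higher (21.8 against 7.02 CPM) and Foxj3 1.62-fold lower (26.4 against 42.8 CPM). Foxk1 (36.5 against 22.1 CPM) and Foxq1 (18.3 against 10.98 CPM) were also higher by 1.5-fold. Foxo1 and Foxp1 were at 189 against 252 CPM and 241 against 199 CPM. Foxa1, which opens chromatin for hormone receptors, was 10.04-fold lower over all cells (10.9 against 110 CPM) and belongs to the hormone-sensing class, where it was at 127 per kilobase in the control.

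**Figure D5:**
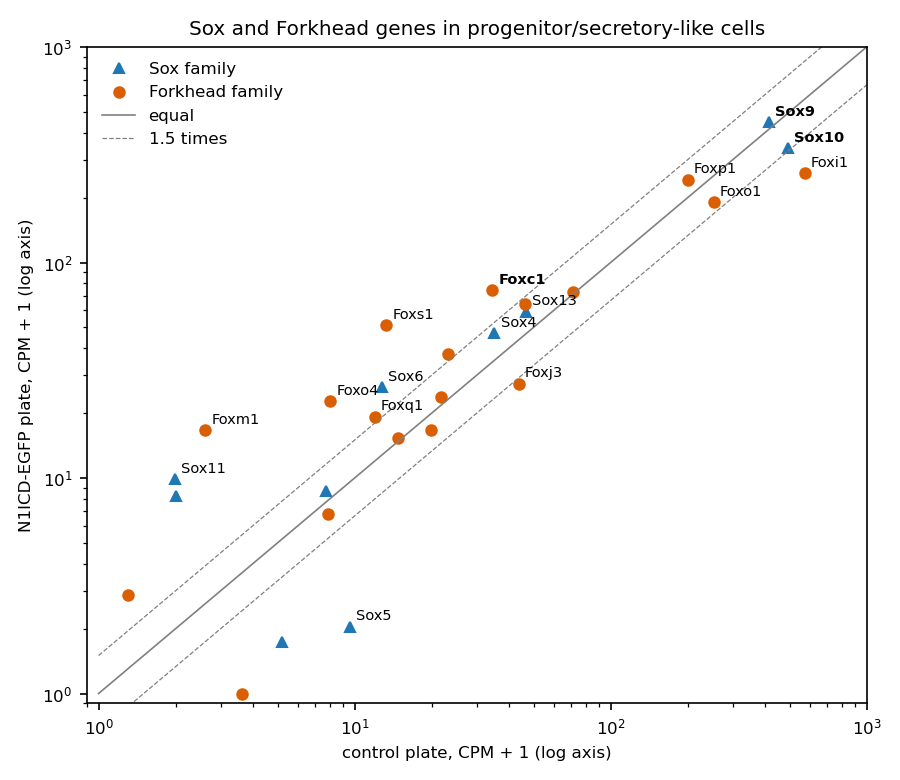
Each point is a Sox or forkhead gene at 5 CPM or more over all kept cells of either plate. Its place gives CPM + 1 in progenitor/secretory-like cells of the control (horizontal) and N1ICD-EGFP plate (vertical), on log axes. Dashed lines mark 1.5-fold. Sox9 and Sox10 are the highest Sox genes and lie between the lines, Foxc1 lies above them and Foxi1 below.

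In the unnamed cluster 6 of 17 measured forkhead genes, Foxc1 among them, were higher and 4 lower than in the joint class of the same plate, where 26.8% and 25.9% of all genes were. Foxq1 was at 139 CPM and 41.4% of cells there, against 18.3 CPM and 7.59% in the joint class. Foxp1 was at 558 against 241 CPM, with 82.9% against 54.4% of cells, Foxp4 at 36.9 against 22.7 CPM, Foxk2 at 23.9 against 14.3 CPM and Foxp2 at 7.66 against 2.48 CPM. Foxs1 was 3.81-fold lower there (13.2 against 50.2 CPM) and Foxi1 3.00-fold lower (86.7 against 260 CPM). Of 11 measured Sox genes, Sox9 and Sox10 among them, 4 were higher and 3 lower. Sox18 was at 28.3 against 0.74 CPM, read in 4.29% against 0.63% of cells. Sox6 was 4.36-fold lower (5.84 against 25.5 CPM). Sox4 was 1.51-fold higher (69.3 against 45.9 CPM), but with the pseudocount it stayed just under the fold used for calls. These genes, unlike the 3 members, could enter the clustering, so their values describe the cluster.

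Foxq1 is also the genomic neighbour of Foxc1, at chr13:31558170-31560976. Within 500 kb of Foxc1 only Foxq1 and Gmds, an enzyme of GDP-fucose synthesis at chr13:31819583-32338762, reached 5 CPM. Foxq1 had a log2 ratio between the plates of 2.28 over all cells and 0.69 in the joint class, and Gmds 0.79 (81.9 against 47.0 CPM) and 1.06 (88.9 against 42.0 CPM). In the unnamed cluster Foxq1 was read in 50% of cells with Foxc1 and 25% of cells without it. Of 4 neighbours of Sox9 in the joint class, log2 ratios ran from -0.75 to 1.32 with a median of -0.13, and the long noncoding RNA BC006965, upstream of Sox9, was at 201 against 339 CPM. Of 21 neighbours of Sox10 there, the log2 ratios ran from -1.43 to 1.14 with a median of 0.26, and 6 were higher and 2 lower by 1.5-fold, where 21.6% and 17.5% of all genes were.

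Lists of genes related to the members were compared in the progenitor/secretory-like class, beside the background of 21.6% higher and 17.5% lower. Of 13 measured luminal progenitor regulators and receptors 1 was higher and 4 lower, with a median log2 ratio of 0.10. The progenitor aldehyde dehydrogenase Aldh1a3 was 2.75-fold lower (353 against 971 CPM), the Ets factor Ehf 1.85-fold lower (499 against 921 CPM) and Myc 1.87-fold higher (244 against 131 CPM). Kit, the receptor that marks luminal progenitors, was at 768 against 717 CPM. The milk and progenitor markers were used to name the class, so these values describe it.

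Of 9 measured neural crest and Schwann lineage genes around Sox10, 2 were higher and 3 lower, with a median of -0.36. Erbb3, a neuregulin receptor, was at 75.6 against 97.1 CPM, Mbp at 66.9 against 91.8 CPM and Mia at 35.6 against 40.2 CPM. Tfap2a, the AP-2 alpha factor, was 5.40-fold higher (167 against 30.9 CPM), while it was read in 39.9% and 41.4% of cells.

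Of 10 measured cartilage and matrix targets of Sox9, 6 were higher and 1 lower, with a median of 0.74. Lect1, which encodes the cartilage protein chondromodulin, was at 179 against 1.13 CPM and reached 1551 CPM in the unnamed cluster, of which it was a leading gene. Ctgf was at 103 against 61.3 CPM, Col9a3 at 79.2 against 66.4 CPM and Wwp2, a ubiquitin ligase, at 110 against 99.8 CPM. Of 22 listed genes 20 were in the files under the listed names. Col2a1 and Acan, the classical cartilage targets, were at 0.13 and 0.25 CPM in the N1ICD-EGFP cells.

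Of 9 measured basal-like breast cancer genes 7 were higher and 0 lower, with a median of 1.04. Egfr was at 164 against 78.0 CPM and Cryab at 246 against 120 CPM. The lowest among those read in 20% of cells was Mia, whose values are given above. Over all kept cells 5 of 13 measured genes of this list were higher and 4 lower, with a median of 0.17. Of 5 measured mesenchymal transition factors 4 were higher and 0 lower, with a median of 1.34, but none was read in 20% of cells in either plate. Of 8 measured Notch targets 5 were higher and 0 lower, with a median of 0.82, led by Hes1 (636 against 219 CPM) and Nrarp (81.0 against 31.2 CPM), while Hey1 was at 398 against 584 CPM. Of 5 measured cell cycle genes 0 were higher and 1 lower. In the unnamed cluster all 8 measured cell cycle genes were higher than in the joint class, with a median of 2.87, where 26.8% of all genes were higher. Of the 8 only Pcna was read in 20% of cells of either group. Foxc1 was also higher in the cluster, and the part of the cell cycle genes in its difference was not tested.

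The genes whose levels were most like those of each member were sought across the progenitor/secretory-like cells by Pearson's r of log2(CPM + 1), ranked by the lower of the values in the 239 control and 158 N1ICD-EGFP cells, among 5190 genes read in at least 20% of cells in both. For Sox10 the 6 were Plet1, Krt8, Fxyd3, Cldn3, Krt19 and Krt18, headed by Plet1 with 0.34 and 0.33. For Sox9 they were Epcam, Cldn3, Trf, Krt19, Serinc3 and Tcf7l2, headed by Epcam with 0.32 and 0.33. For Foxc1 they were Mycbp2, Vezt, Mtor, Herc2, Rab4a and Mapkapk3, headed by Mycbp2 with 0.21 and 0.24. The cells of a plate share depth and preparation, and values of this size in sparse counts are a description only.

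The cell filter had a threshold. Of the 10 control wells just under 50000 reads (42884 to 46314) 4 had Foxc1, 5 Sox9 and 7 Sox10, and of the 10 just over it (50048 to 59376) 2, 7 and 6. Of the 10 N1ICD-EGFP wells just under it (16846 to 44589 reads) 0 had Foxc1, 5 Sox9 and 4 Sox10, and of the 10 just over it (51736 to 77184) 5, 6 and 5.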

How the data were processed

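The authors deposited raw counts of Smart-Seq2 reads, by gene and well. The submitters' processing notes name STAR and mm10. Not given in the sources used here are versions, the counter, the annotation and whether strand was used. Of 24490 rows, 492 repeated an earlier name and were summed with it, and eGFP was set apart. Wells of 50000 reads and 1000 genes or more entered. No doublet caller was run, because wells were filled by single-cell sorting. As an alternative, 67 cells were dropped as possible doublets for a gene number more than 3 median absolute deviations over their plate's median.

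Each plate was clustered without Foxc1, Sox9 and Sox10 (scanpy 1.11.5, Leiden, 2000 variable genes, 15 components, 15 neighbours, resolution 0.8, seed 0). A cluster was named from at least 3 raised markers, each read in 20% of its cells and 1 log2 unit above the mean over clusters, unless markers of another class were more numerous among its 10 leading genes. Log2 ratios used a pseudocount of 1, and calls a fold of 1.5 among genes at 5 CPM or more in either group. Differences of shares have Newcombe intervals. Python 3.11.15, numpy 2.4.6 and scipy 1.17.1 were used, and the steps were tested on simulated data.

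The members and the gene lists were chosen with earlier results of these data known. Named list genes were the highest and lowest log2 ratios among those read in 20% of cells of 1 group, up to 4 per list. The rule also covered the other Sox and forkhead genes at 5 CPM or more, of which only some are named. Kit, Col2a1, Acan and the genes singled out beyond this rule were chosen after their values were seen. The nearest genes were 6 per member, and neighbours lay within 500 kb. Sequences are from RefSeq (GRCm38.p6), where 1 of the 3 members matched the promoter table. Alternatives covered cell filter, thinning, doublets, well columns, clustering, summing and pseudocount.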

Additional observations from a re-analysis of the deposited data

Results flagged for a closer look

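Wells under the cell filter entered no comparison, and all 3 genes had reads there above the limit that a count of 0 allows (2.23 CPM for the 50 control and 1.90 CPM for the 101 N1ICD-EGFP wells, from 3 counts over each group). In the control wells Foxc1 stood at 107 CPM, with reads in 13 wells, above the 22.2 CPM of the kept control cells. Sox9 stood at 212 CPM there (26 wells) and Sox10 at 316 CPM (31 wells). In the N1ICD-EGFP wells Foxc1 stood at 43.7 CPM, all from 1 well, Sox9 at 106 CPM (17 wells) and Sox10 at 57.6 CPM (13 wells). These wells held a median of 28772 reads (control) and 665 reads (N1ICD-EGFP).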

How the results depend on the processing

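Of 273 alternative values, 262 kept the sign of the value given above. Foxc1 stayed past 1.5-fold between the plates in all 12 alternatives over all cells (log2 ratio 1.26 to 2.57) and all 15 in the joint class (0.73 to 1.94). Sox9 stayed under 1.5-fold in all of these, from -0.05 to 0.48 over all cells and from 0.08 to 0.35 in the class. Sox10 stayed lower in all of them. Its value in the class, -0.53, passed 1.5-fold with the stricter cell filter (-0.64), the looser filter (-0.65) and without 67 possible doublets (-0.73). It also did so at resolution 1.2 (-0.63) and with the unnamed cluster counted in (-0.75). In these 5 settings, in that order, the N1ICD-EGFP joint class held 174, 211, 173, 206 and 228 cells rather than 158. The cells compared thus differed as well as the setting. Over all cells the Sox10 value, -0.51, passed 1.5-fold without possible doublets (-0.79) and with thinning before summing (-0.59). The share difference of Sox10 was -19.6 points in the class with the looser filter and -21.0 points over all cells without possible doublets. Among alternatives chosen after seeing the data, the share difference of Foxc1 over all cells was 10.1 points without the unnamed cluster, and that of Sox9 -6.03 points without immune-like cells. By eGFP, in progenitor/secretory-like cells only, the log2 ratio of Foxc1 turned to -0.32 and that of Sox10 was 0.50, and the share differences were 10.3 (Foxc1), 2.72 (Sox9) and 22.9 points (Sox10). Without immune-like and hormone-sensing cells, also chosen after seeing the data, the values were 0.26 and 0.36 for the log2 ratios of Foxc1 and Sox10, and 5.02 (Sox9) and 18.6 points (Sox10). The median of the Sox family without the members moved from 0.42 to between 0.21 and 1.11 in the class. That of the luminal progenitor regulators and receptors in the class, 0.10, kept its sign in 5 of 11 alternatives (-0.22 to 0.15). The causes were not tested. No paired analysis was possible because each plate is 1 sample and a well position shared by the plates joins no cells. Thinning to a common depth lowered the Foxc1 share in the joint class from 31.4% to 25.5% on the control plate and from 46.8% to 38.6% on the other, and the groups of 7 cells are limited by their number.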
